A study of Mus musculus with 9 samples.

Results

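The fibroblast growth factor (FGF) and epidermal growth factor (EGF) families of ligands and receptors were examined in mouse hepatic stellate cells. Members were the non-control probes named for a numbered Fgf gene, for Fgfr1 to Fgfr4, for Fgfrl1, or for one of 15 named EGF ligand, neuregulin and ErbB receptor genes. The names gave 90 of the 56605 non-control probes, and these stand for 42 genes. To be tested, a probe needed 0.5 or more of its spots flagged well above background on every array of some group, and 59 of the 90 probes met this. The brightest kept probe, by its mean over all 9 arrays, stood for its gene. Most of these arrays are of cultured cells, so the choice leans to probes that are bright in culture. In this way 31 of the 42 genes were among the 23965 genes tested, 18 of 27 in the FGF family and 13 of 15 in the EGF family.

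FGF ligands signal in 3 ways. Paracrine FGFs bind heparan sulfate and act on receptor tyrosine kinases of nearby cells, hormone-like FGFs need a Klotho co-receptor and travel in blood, and the FGF homologous factors stay inside the cell. EGF family ligands are made as membrane proteins that are cut free by sheddases and bind EGFR or ERBB4, while neuregulins bind ERBB3 or ERBB4, and ERBB2 has no known ligand and pairs with the others. In liver, FGF7 is known as a mesenchymal factor that acts on epithelial cells through FGFR2, and FGFR4 with beta-Klotho is the hepatocyte receptor for the bile-acid hormone FGF15.

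Cells were prepared by collagenase perfusion from C57BL/6 mice aged 10 weeks, and each of 3 groups had 3 single-colour arrays. The first group is labelled as quiescent stellate cells (qhsc) with no treatment and no stated time of harvest. The other groups had been cultured for 7 days on hard plates in medium with fetal bovine serum and then transfected overnight with 5 nM of either a negative control siRNA (nc) or an siRNA against Cav1, the caveolin-1 gene (si-cav). The change from quiescent to control-siRNA cells therefore holds time in culture, serum, the hard surface and transfection together, and these cannot be told apart. Nothing in the labels ties the arrays to separate animals or cultures, so each p-value reflects only how far these particular samples vary, and that spread may be technical.

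Probes above background made up 51.5 to 69% of an array, and arrays of one group correlated at 0.97 or more across genes. The targeted gene, Cav1, had a mean of -1.18 ± 0.14 (SD, n = 3) with the control siRNA and -2.94 ± 0.11 with the Cav1 siRNA, which is 29.4% of the control level (95% confidence interval 20.2 to 42.9%; limma adjusted p = 0.145). Quiescent arrays held signal of other liver cells: the log2 of the summed signal of 10 hepatocyte markers lay between 10.09 and 10.42 there and between -2.87 and -2.69 with the control siRNA, where 6 of the 10, but not Alb, were below background on all arrays. Sums for 7 sinusoidal endothelial markers (8.06 to 8.77 against -1.62 to -1.38), 6 macrophage markers (7.58 to 8.32 against 2.56 to 2.69) and 7 lymphocyte and neutrophil markers (4.5 to 5.74 against 0.25 to 0.43) were also higher in the quiescent group. The sum of 6 measured mesothelial and portal fibroblast markers ran the other way (-0.07 to 0.64 against 4.74 to 4.79). Of these 6, Wt1, Upk1b, Upk3b and Msln were called higher, while Eln (-0.96) and Entpd2 (-2.86) were called lower. The sum of 5 cholangiocyte markers was also higher in culture (2.31 to 2.85 against 4.78 to 5.05), with 2 called higher and 2 lower. Spp1 (3.37) and Sox9 (0.71) rose, Krt19 (-3.15) and Krt23 (-6.25) fell, and Krt7 was not called. Spp1 alone had a mean of 4.9 with the control siRNA, close to the whole sum. Of 8 measured stellate cell markers 2 were called higher and 4 lower in culture, with sums of 2.07 to 3.45 and then 4.19 to 4.35. Lrat, the retinol-storing enzyme, was above background on all 3 quiescent arrays and on 0 control-siRNA arrays, and Pdgfrb rose. All values are log2 processed signals relative to the 75th percentile of their array, so a level of one probe cannot be set against that of another.

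Culture activation moved most of the measured members, with 16 called higher and 8 called lower of 31 (limma adjusted p under 0.05). Over all genes tested 68.1% were called, 42.1% higher and 26% lower, so calls were frequent throughout the measured genes. For 6 of the 31 members, and 3039 of the 23965 genes, 1 of the compared groups was below background on all its arrays. Fgf7, Fgf2, Fgf10, Ereg and Btc passed the filter only through the cultured groups, which favours a call in the higher direction. By the brightest probe, 14 members were higher and 4 lower with at least a 2-fold change. Of all genes 47.9% were called at that size, 28.9% higher and 19% lower. At an unadjusted p under 0.05 the number was 24 of 31 members and 70.8% of all genes. The median change of the 31 members was 0.66, against 0.32 over all genes tested. Calls in the higher direction covered 5 of 9 paracrine FGFs, 4 of 5 EGF receptor ligands, 2 of 5 FGF receptors, 2 of 4 ErbB receptors and 1 of 4 neuregulins, as well as the single hormone-like FGF and 1 of 3 intracellular factors that were tested. In the lower direction were 3 paracrine FGFs, 2 FGF receptors and 1 each of the intracellular factors, neuregulins and ErbB receptors, and, by the brightest probe, no EGF receptor ligand. All 3 quiescent arrays were separated from all 3 control-siRNA arrays for 24 members, 16 upwards and 8 downwards, and for 69.8% of all genes, 42.8% upwards and 27% downwards. In bulk RNA, fewer cells of a type and less RNA per cell cannot be told apart. The part of the other liver cells' markers in these changes was not tested. Slide 1 held all quiescent arrays and 1 control-siRNA array, and within it 16 of the 18 members with at least a 2-fold change were still called, with 4.81 for Fgf18, -5.86 for Fgf1 and -6.57 for Erbb3. These values set 1 control-siRNA array against the 3 quiescent ones, and since the spread comes from the other arrays, the lone array is assumed to vary as they do.

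**Figure D1:**
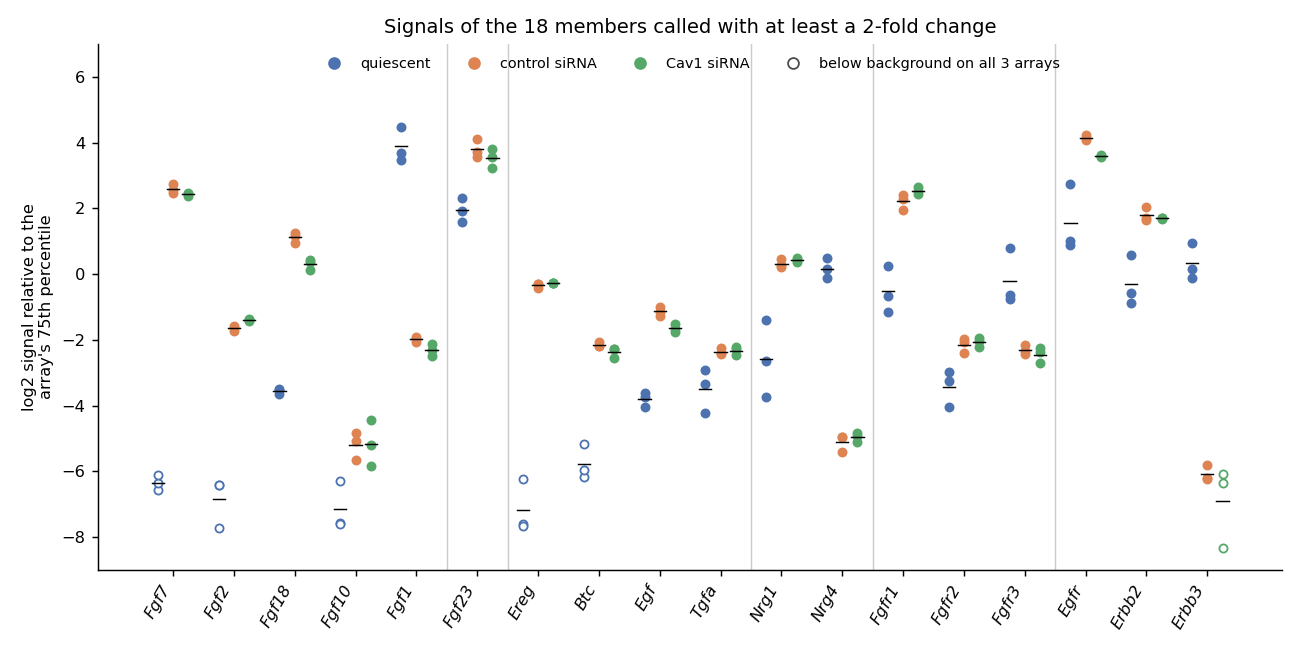
Log2 signal relative to the array's 75th percentile (vertical axis) for the 18 members called with at least a 2-fold change between quiescent and control-siRNA cells, grouped by role. Each point is 1 array, each short line a group mean, and open points mark a group below background on all 3 arrays; Fgf7 went from -6.34 in quiescent cells to 2.59 with the control siRNA while Fgf1 went from 3.89 to -1.98.

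Fgf7, also called keratinocyte growth factor, went from below background in quiescent cells to well above it in culture. Its probe lies at chr2:125916134-125916193 (mm9, plus strand). The first 30 bases of this probe and the 250 bases before the RefSeq start of the gene (chr2:126034408-126034657, GRCm38.p6, plus strand) are shown because Fgf7 was above background in the cultured cells alone, with capitals for any of 4 motifs described beside Fgf18.
Fgf7 probe, bases 1 to 30: gctcttcccacaaataatcatgcttatttc
Fgf7 promoter, 250 bases: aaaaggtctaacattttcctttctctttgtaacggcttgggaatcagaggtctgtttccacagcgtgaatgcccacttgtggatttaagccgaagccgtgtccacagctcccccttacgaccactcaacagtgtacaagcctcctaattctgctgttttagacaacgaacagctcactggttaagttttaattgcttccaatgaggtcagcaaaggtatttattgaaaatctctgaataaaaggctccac

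Fgf7 signals were -6.56, -6.36 and -6.1 in quiescent cells, 2.73, 2.47 and 2.57 with the control siRNA, and 2.38, 2.48 and 2.45 with the Cav1 siRNA. No quiescent array was above background, and all cultured arrays were far above it. Its level in control-siRNA cells was therefore at least 188-fold that in quiescent cells (limma adjusted p = 8.7e-10). For such a gene the fold is a minimum only under the main background subtraction, and it carries no sampling error. The dim group is set, array by array, to the faintest level at which any probe counted as above background. A reading brighter than that level is kept as it is. The Fgf7 bound is 7.56 in log2, while normexp background correction with the 75th percentile gave a smaller log2 change of 5.34.

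Fgf18, a paracrine FGF known for its part in cartilage, bone and lung, is measured by 1 probe at chr11:33017441-33017500 (mm9, minus strand). Its sequences are shown since Fgf18 rose with culture and had the smallest p of all members after the Cav1 siRNA. The 250 bases come from chr11:33147401-33147650 (RefSeq, GRCm38.p6, minus strand), written 5′ to 3′ along the gene. Capitals mark the 1 motif match.
Fgf18 probe, bases 1 to 30: aacgaggaaactgcgagaaaccaaagtcct
Fgf18 promoter, 250 bases: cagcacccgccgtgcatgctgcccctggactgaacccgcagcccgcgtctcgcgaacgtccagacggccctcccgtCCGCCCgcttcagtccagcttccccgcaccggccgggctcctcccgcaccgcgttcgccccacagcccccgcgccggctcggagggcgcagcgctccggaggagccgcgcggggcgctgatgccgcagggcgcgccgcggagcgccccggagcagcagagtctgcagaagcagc

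On both strands the promoters were searched for the AP-1 motif TGANTCA, the TEAD motif GGAATG, the TATA box TATAAA and the GC box GGGCGG. The Fgf18 stretch holds 1 GC box, read on the opposite strand and starting 174 bases before the gene start, and the Fgf7 stretch holds 0 of the 4. G and C make up 77.2% of the Fgf18 bases and 43.6% of the Fgf7 bases, where the middle 80% of promoters in the RefSeq table lie between 38.8 and 69.2%. In windows of 300 bases that run 50 past the start, AP-1 is found in 7.81%, TEAD in 14.7%, the TATA box in 13.6% and the GC box in 35.7% of 32851 promoters. For 30 of the 42 member genes a promoter was matched by symbol and read. Of 12 members that rose and have one, 5 hold the GC box, 2 the TEAD motif and 0 either of the others. Of 6 that fell, 4 hold the GC box, 3 the TEAD motif and 1 the AP-1 motif. A gene was counted if any promoter under its symbol held the motif, while the percentages above are over single promoters. A match is only a run of letters, and no match says only that these letters are not in this window.

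Fgf18 signals were -3.64, -3.5 and -3.51 in quiescent cells and 1.26, 1.15 and 0.94 with the control siRNA. Both groups were above background on every array and stood far apart. The rise was 25.4-fold (log2 change 4.67, SE 0.15, adjusted p = 1.28e-08).

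Fgf2, basic FGF, a mitogen of mesenchymal cells that lacks a classical signal peptide, was below background in quiescent cells. Its brightest probe, at chr3:37303539-37303598 (mm9, plus strand), is shown in full because 2 of the gene's 3 probes left background in culture and 1 did not.
Fgf2 probe: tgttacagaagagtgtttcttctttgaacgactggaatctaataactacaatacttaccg

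This Fgf2 probe read -6.43, -6.4 and -7.71 in quiescent cells and -1.73, -1.58 and -1.65 with the control siRNA, an at least 9.97-fold rise (adjusted p = 6.94e-07). The second probe also left background, with an at least 2.85-fold rise, while the remaining one, built on another transcript record, was below background on all arrays. Fgf10, a mesenchymal factor that signals through FGFR2, read -7.56, -6.28 and -7.61 in quiescent cells and -5.09, -5.66 and -4.83 with the control siRNA. The groups were separate, but the cultured signals were too dim for a bound, so no fold is given (adjusted p = 0.00397), and the sign turned under one background correction (log2 change -0.3). Its 2 other probes were below background on every array.

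Fgf1, acidic FGF, which binds all FGF receptors, went the other way. Signals of 3.69, 3.48 and 4.49 in quiescent cells stood against -1.97, -1.92 and -2.05 with the control siRNA. The groups were far apart and all arrays were above background, with a level in culture of 1.71% of the quiescent one (95% confidence interval 1.15 to 2.53%, log2 change -5.87, SE 0.25, adjusted p = 7.37e-08). Of its 2 other probes, one gave -6.16, and the other was below background on all control-siRNA arrays and at least 10.6-fold lower there. Hepatocyte marker sums fell between the same arrays by the values given above, and their part in the fall of Fgf1 was not tested.

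Smaller shifts were seen for Fgf3, Fgf6 and Fgf8, ligands best known from development and muscle, whose quiescent signals were near background for Fgf3 and Fgf8 (2 of 3 arrays above it). Fgf3 changed by -0.9 (adjusted p = 0.00371), with -0.44 (not called) from its other kept probe. Fgf6 changed by -0.73 (adjusted p = 0.0358) while its other kept probe gave 1.03 (not called). Fgf6 was not called without quiescent array 1 (-0.59) or 3 (-0.76), or without control-siRNA array 2 (-0.66) or 3 (-0.68), and it lost its call with the slide as a block. Fgf8 changed by 0.75 (adjusted p = 0.045), and lost its call without any one of 7 arrays: quiescent 1 (0.44) or 2 (0.83), control siRNA 1 (0.79), 2 (0.82) or 3 (0.64), or Cav1 siRNA 1 (0.75) or 3 (0.75). The slide as a block also ended the Fgf8 call. Its sign turned under normexp background correction with the 75th percentile (-0.25). Fgf9, a ligand of FGFR3 and FGFR2, was not called (0.3, 95% confidence interval -0.23 to 0.84). Fgf4, Fgf16, Fgf17 and Fgf20 were above background on 0 of the 9 arrays, Fgf5 on 1 and Fgf22 on at most 2.

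Among the hormone-like FGFs, Fgf23, the phosphate-regulating hormone of bone, was the one tested. Its single probe, at chr6:127030758-127030817 (mm9, plus strand), is shown because it holds a run of 20 bases of alternating C and A, in capitals.
Fgf23 probe, bases 1 to 30: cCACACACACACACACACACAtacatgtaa

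Fgf23 signals were 1.92, 2.31 and 1.6 in quiescent cells and 3.57, 3.72 and 4.1 with the control siRNA, a 3.61-fold rise (log2 change 1.85, SE 0.24, adjusted p = 0.000117). The groups did not overlap. No other member probe has a CA run of 20 or more bases. Among all 36817 kept probes 75 have such a run of CA or TG, of which 29 were called higher and 46 lower with culture. These probes were bright: their control-siRNA means had a median of 4.93 and a lowest value of 0.95. Over all kept probes that median was -1.78. What share of the Fgf23 probe's signal comes from Fgf23 transcripts was not tested. Fgf15, the intestinal bile-acid hormone, was above background on 0 arrays. Fgf21, the fasting hormone of hepatocytes, was above background on 2 of 9: quiescent array 2 at -2.23 and control-siRNA array 3 at -3.33.

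The intracellular FGF homologous factors, which bind sodium channels, were dim. Fgf11 was called higher (0.66, adjusted p = 0.0202), but not without quiescent array 1 (0.48) or control-siRNA array 1 (0.61) or 2 (0.59). It changed sign under normexp with the 75th percentile (-0.23), and it was not called with the slide as a block. Of its other kept probes, one rose at least 1.39-fold from below background (called), and the other gave -0.02. Fgf12 was called lower (-0.82, adjusted p = 0.0241), though not without quiescent array 1 (-0.77) or 2 (-0.79) or control-siRNA array 1 (-0.53). It was also not called with normexp and quantile (-0.17). The call rests on 1 of 4 probes, as the others were below background on every array. Fgf13 was not called (-0.9, adjusted p = 0.0945) unless quiescent array 2 was left out (-1.45). Fgf14 was above background on 0 arrays.

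By the brightest probe, 4 of 5 tested EGF receptor ligands were called higher, where 42.1% of all genes were. Among these ligands, Ereg and Btc passed the filter only through the cultured groups. Ereg, epiregulin, a ligand of EGFR and ERBB4 made by inflamed and repairing tissue, read -7.61, -6.24 and -7.66 in quiescent cells and -0.41, -0.31 and -0.3 with the control siRNA. It went from below background on all arrays to above on all, and was at least 24.7-fold higher (adjusted p = 1.79e-07). Btc, betacellulin, read -6.17, -5.95 and -5.17 and then -2.08, -2.18 and -2.18, an at least 6.7-fold rise (adjusted p = 1.36e-06). Its other probe, from the same transcript record, was below background on all 9 arrays, so the Btc rise rests on 1 of 2 probes.

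Egf itself, a ligand of EGFR best known from salivary gland and kidney, read -4.05, -3.73 and -3.62 in quiescent cells and -1, -1.15 and -1.26 with the control siRNA. The groups were separate and all above background, with a 6.34-fold rise (log2 change 2.66, SE 0.16, adjusted p = 6.03e-07). A second kept probe was below background in quiescent cells and at least 2.92-fold higher with the control siRNA. Tgfa, transforming growth factor alpha, read -3.34, -2.91 and -4.23 and then -2.42, -2.39 and -2.26. The rise was 2.2-fold (log2 change 1.14, SE 0.29, adjusted p = 0.00705), the other kept probe gave -0.12, and the call was lost within slide 1 (1.07, adjusted p = 0.0743). Hbegf, the heparin-binding EGF-like factor, read 2.16, 2.48 and 0.27 in quiescent cells and 0.82, 0.78 and 0.94 with the control siRNA. The groups overlapped through quiescent array 3, and Hbegf was not called (-0.79, adjusted p = 0.177), but it was called lower without that array (-1.47, adjusted p = 0.000115). A second probe, from another transcript record, gave -3.76 and was called. Areg, amphiregulin, was above background on quiescent array 1 alone (-4.49) and Epgn, epigen, on 0 arrays.

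Neuregulins, ligands of ERBB3 and ERBB4, gave both directions. Nrg1 read -3.75, -1.39 and -2.64 in quiescent cells and 0.46, 0.21 and 0.29 with the control siRNA, so that all cultured arrays were above all quiescent ones. The rise was 7.53-fold (log2 change 2.91, SE 0.48, adjusted p = 0.000525), with a log2 change of 3.51 without quiescent array 2 and 2.34 without quiescent array 1. Of its 5 kept probes, the brightest and 2 more were called higher. These 2 rose from below background on all quiescent arrays by at least 3.29-fold and 2.85-fold, the latter on a predicted transcript record. Both probes of another predicted transcript record gave -0.13 and -0.43 and were not called. In quiescent cells their means were -1.7 and -2.22, and that of the brightest probe, chosen over all arrays, was -2.59. Which transcripts each probe reads was not checked. The brightest probe, at chr8:32928500-32928559, and one that was flat, at chr8:33068986-33069045 (both mm9, minus strand, on chromosome 8), are shown to let the 2 targets be told apart.
Nrg1 brightest probe: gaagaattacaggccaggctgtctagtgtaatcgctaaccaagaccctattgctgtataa
Nrg1 probe of the predicted transcript: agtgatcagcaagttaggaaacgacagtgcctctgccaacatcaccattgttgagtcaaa

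Nrg4, a neuregulin known as a factor released by brown fat, fell steeply. It read -0.13, 0.49 and 0.15 in quiescent cells and -4.95, -5.42 and -4.96 with the control siRNA. The groups were far apart, and the cultured level was 2.57% of the quiescent one (95% confidence interval 1.87 to 3.53%, log2 change -5.28, SE 0.2, adjusted p = 3.96e-08). With normexp correction the change was -3.38 or -3.23. Both other probes of the reference transcript fell as well, by a log2 change of -5.76 for one and at least 27.7-fold for the other. The remaining probe, named by a cDNA clone, was called higher (0.78), so Nrg4 is the 1 member with probes called both ways. The probe that reached background in culture spans an intron, from 55075745 to 55084303 on chromosome 9 (mm9, minus strand), and is shown for that reason.
Nrg4 probe: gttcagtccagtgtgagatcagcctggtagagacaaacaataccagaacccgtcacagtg

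Nrg2 (-0.27) and Nrg3 (0.55), neuregulins known mainly from the nervous system, were not called, and their groups overlapped.

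**Figure D2:**
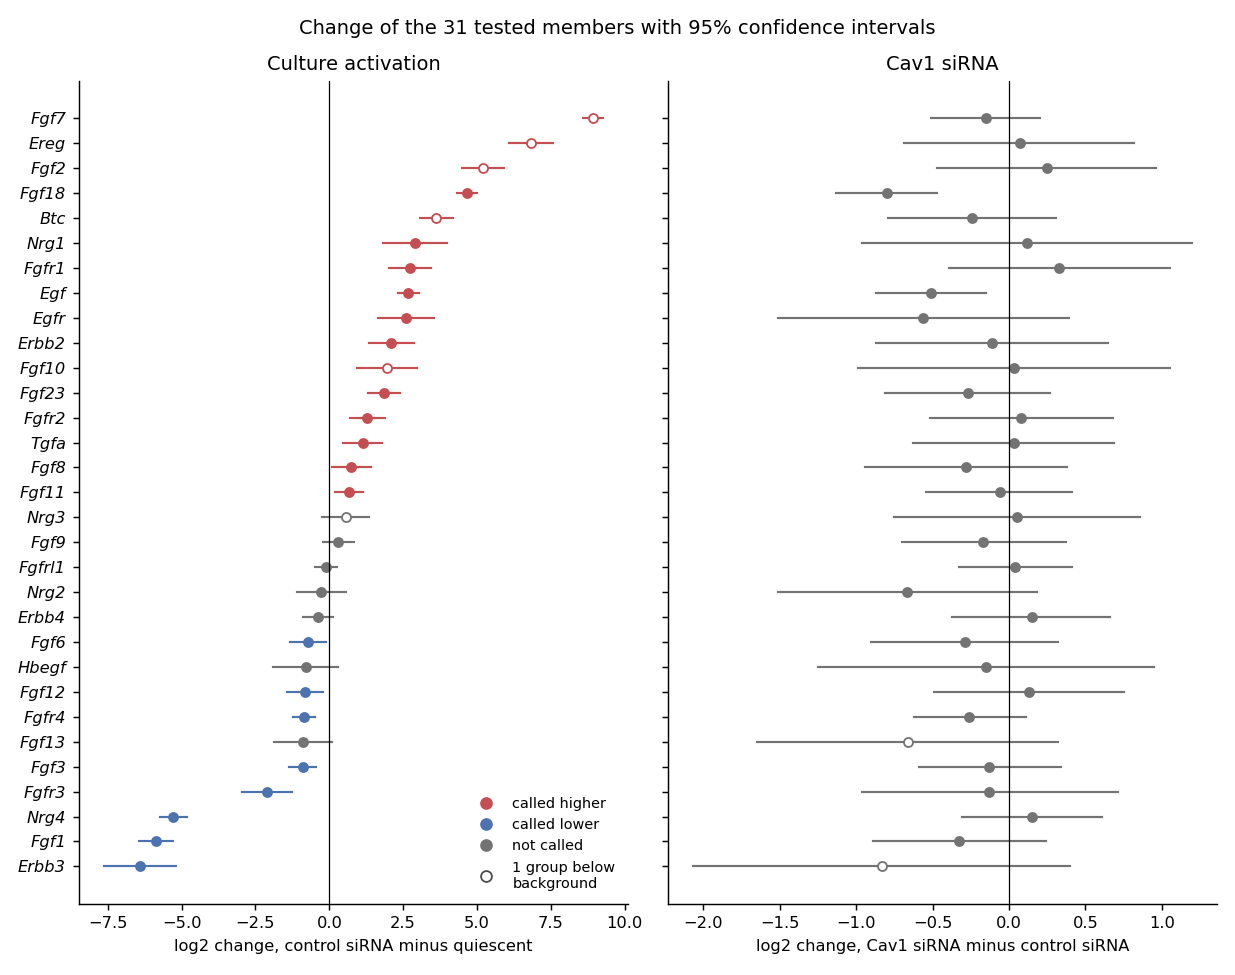
Log2 change with its 95% confidence interval (horizontal axes) for all 31 tested members, for control siRNA minus quiescent cells on the left and Cav1 siRNA minus control siRNA on the right, with different axis ranges. Red and blue mark calls at a limma adjusted p under 0.05, grey no call and open points a group below background; 16 members were called higher and 8 lower on the left and 0 on the right.

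FGF receptors split by type. Fgfr1, the main receptor of mesenchymal cells, read -0.66, 0.25 and -1.16 in quiescent cells and 1.94, 2.41 and 2.28 with the control siRNA, with no overlap. The rise was 6.64-fold (log2 change 2.73, SE 0.32, adjusted p = 5.74e-05), and all 4 of its kept probes were called higher, one of them from below background in quiescent cells (at least 2.36-fold). Fgfr2, the receptor of FGF7 and FGF10 in its epithelial splice form, read -3.25, -2.99 and -4.04 and then -2.4, -2.06 and -1.97. This was a 2.43-fold rise (log2 change 1.28, SE 0.26, adjusted p = 0.00208), with 0.34 (not called) from its other kept probe and no call within slide 1 (1.03, adjusted p = 0.0507). Neither probe was checked for which splice form it reads. Fgfr3 read -0.63, 0.79 and -0.77 and then -2.44, -2.17 and -2.35, a fall to 23% (95% confidence interval 12.9 to 41.1%, log2 change -2.12, SE 0.37, adjusted p = 0.000776). Its other kept probe gave -0.45 and was not called. Fgfrl1, a receptor without a kinase domain, was not called (-0.11, 95% confidence interval -0.48 to 0.27).

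For Fgfr4 the size of the fall depended on the probe and differed between processing settings. By the brightest probe it fell by a log2 change of -0.87 (SE 0.16, adjusted p = 0.0012), from -3.43, -3.64 and -3.27 to -4.51, -4.18 and -4.26. With normexp correction Fgfr4 changed by -2.71 (75th percentile) or -2.43 (quantile). The brightest probe was picked anew under each setting, so these values may come from another Fgfr4 probe. Both probes of the reference transcript gave -5.55 and -5.86 and were called, and each was above background on all quiescent arrays and on 1 of 3 control-siRNA arrays. Their quiescent means were -0.96 and -1.04, and that of the brightest probe, chosen over all arrays, was -3.45. The reference probes lie at chr13:55269977-55270036 and chr13:55270033-55270092 and share 4 bases. The brightest probe lies upstream at chr13:55269360-55269419 (all mm9, plus strand) and carries another transcript record. The first 30 bases of each are shown since the Fgfr4 result turns on them.
Fgfr4 reference probe 1: ccctccattgcttgttccagcatcttggtg
Fgfr4 reference probe 2: gagagacgagaagcctgtgggaacgacaga
Fgfr4 brightest probe: gaagctgaccagctctgttccttgcagtac

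**Figure D3:**
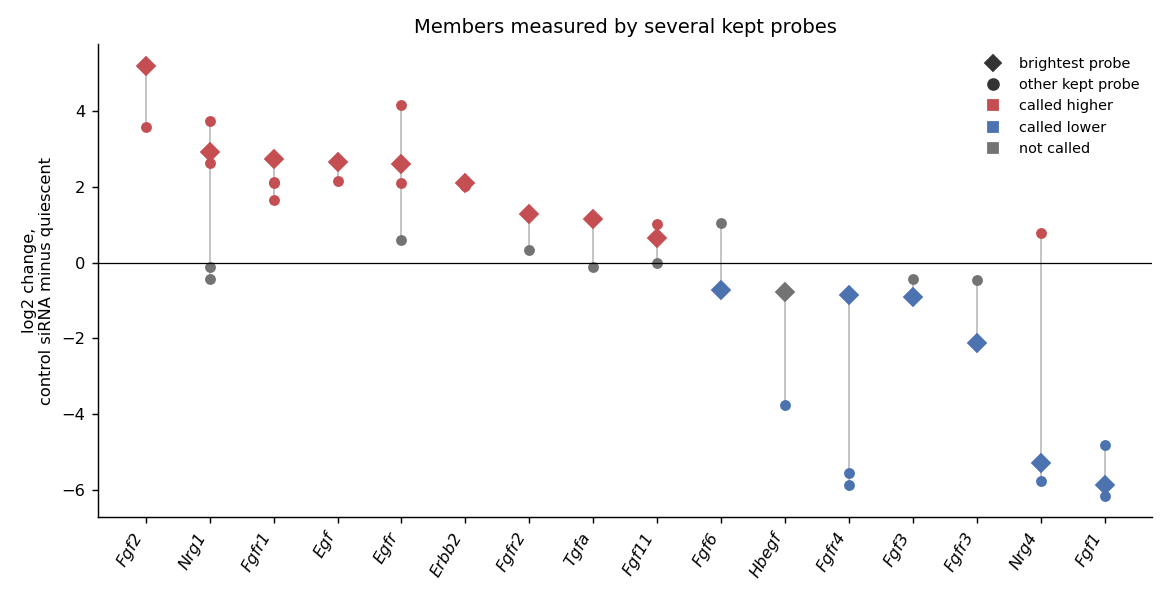
Log2 change from quiescent to control-siRNA cells (vertical axis) for each kept probe of the 16 tested members with more than 1, where a diamond is the brightest probe. All kept probes were called in the same direction for 6 of the 16, and Fgfr4 ranged from -5.86 to -0.87 and Nrg4 from -5.76 to 0.78.

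ErbB receptors also differed. Egfr, the receptor of all EGF ligands tested here, read 1.01, 0.89 and 2.73 in quiescent cells and 4.22, 4.14 and 4.08 with the control siRNA. Quiescent array 3 was the highest of its group yet below the cultured arrays, and the rise was 6.07-fold (log2 change 2.6, SE 0.42, adjusted p = 0.000478; log2 change 3.2 without that array). The other kept probes gave 4.15 and 2.1, both called, and 0.6, which was not, so the size of the Egfr rise is uncertain. Erbb2, the co-receptor with no ligand of its own, read -0.89, 0.59 and -0.56 and then 2.03, 1.66 and 1.72. The groups were separate, with a 4.26-fold rise (log2 change 2.09, SE 0.33, adjusted p = 0.000449) and 2.02 from the second probe.

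Erbb3, the kinase-impaired neuregulin receptor, fell to near background. It read -0.11, 0.16 and 0.94 in quiescent cells and -6.24, -6.2 and -5.8 with the control siRNA, where 1 of 3 arrays was above background. The level in culture was 1.18% of the quiescent one (95% confidence interval 0.5 to 2.76%, log2 change -6.41, SE 0.54, adjusted p = 6.61e-06), but the change was -3.72 or -3.55 with the normexp settings. A second Erbb3 probe, on the reference transcript, was below background on all arrays, so the fall rests on 1 of 2 probes. Erbb4 was not called (-0.38, 95% confidence interval -0.89 to 0.14), with its second probe below background throughout. Fgf1, Nrg4, Fgfr3, Fgfr4 and Erbb3 all fell between the arrays over which hepatocyte, endothelial, macrophage and lymphocyte marker sums fell, and the part of those cells in the 5 falls was not tested.

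Genes that act with the families were read from 5 lists. In the list of FGF co-receptors and ligand traps, 3 of 6 tested genes rose and 2 fell (median 1.28). The adhesion protein gene Flrt2 (3.82), Il17rd, an inhibitor of FGF signalling (3.51), and Fgfbp3, an FGF carrier (2.31), rose, while Flrt1 (-4.37) and Klb, the beta-Klotho co-receptor of hormone-like FGFs (-4.21), fell. Klb fell together with the reference probes of its partner Fgfr4. Kl and Fgfbp1 did not reach the filter.

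Heparan sulfate proteoglycans and their enzymes, which hold FGFs at the cell surface and shape receptor binding, had 16 of 18 genes called higher and 2 lower (median 1.9). Hs6st2, a 6-O-sulfotransferase, left background and was at least 283-fold higher (adjusted p = 1.18e-08). Sulf1, which removes 6-O-sulfates outside the cell, rose by 6.23 and Gpc6, a glypican, by 4.18. The syndecan gene Sdc3 (-2.06) and the sulfotransferase gene Hs6st1 (-0.89) fell.

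Receptor adaptors had 4 of 8 genes called higher and 1 lower (median 0.47). Frs2, the docking protein of FGF receptors (2.01), Shc1 (1.54) and the phosphatase gene Ptpn11 (0.85) had the largest rises, and Grb2, which links receptors to RAS activation, fell (-0.5). Among feedback inhibitors and ERK-responsive genes 9 of 15 tested rose and 4 fell (median 0.85). Etv4, an ETS factor (3.51), and Dusp4, a MAP kinase phosphatase (3.48), rose, and Spry3, a Sprouty inhibitor, was at least 2.09-fold higher. Errfi1, an inhibitor of EGFR, fell from 6.25 ± 0.01 to 1.15 ± 0.01 (SD, n = 3; log2 change -5.1, SE 0.12, adjusted p = 2.99e-09). Dusp5 (-1.76) and Spry1 (-1.1) also fell, so members of the list moved both ways.

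Sheddases and rhomboids, which release or traffic EGF ligands, had 8 of 10 genes called higher and 2 lower (median 1.76). Adam12 (2.93), Rhbdf1 (2.87) and Adam9 (2.57) had the largest measured rises. Rhbdf2, the partner that carries the sheddase ADAM17 to the surface, was at least 91.7-fold lower (adjusted p = 1.77e-06), and Adam8 fell by 0.71. Signals of Rhbdf1 and Rhbdf2, 2 relatives of like function, changed in opposite directions in this bulk RNA. Hepatocyte, endothelial, macrophage and lymphocyte marker sums fell between the same arrays. The part of those cells in the falls of this list and the lists above was not tested. With 42.1% of all genes called higher and 26% lower, these counts describe the lists and are no test of them.

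**Figure D4:**
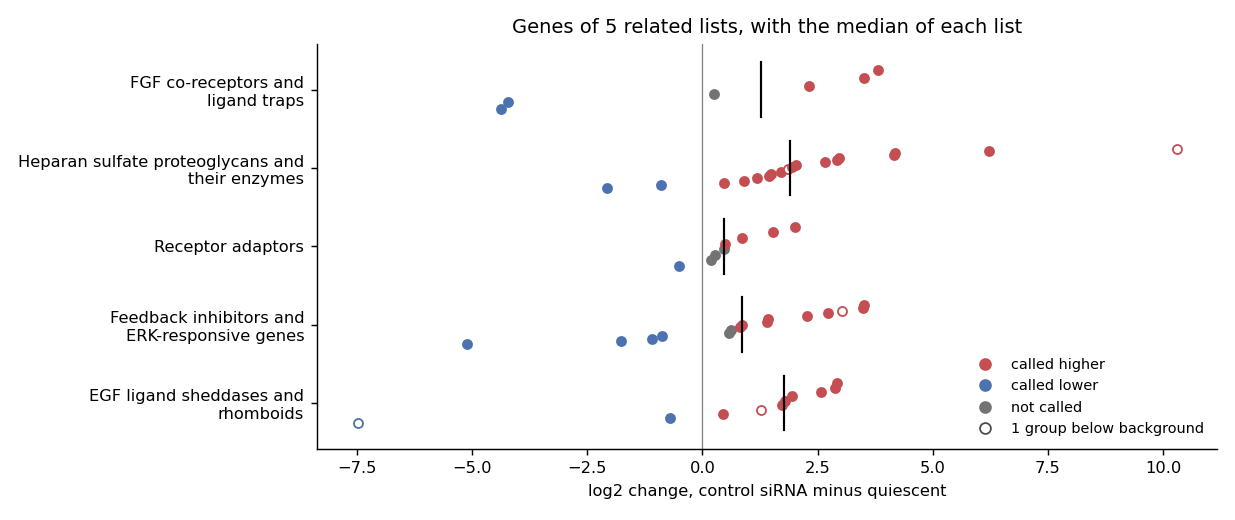
Log2 change from quiescent to control-siRNA cells (horizontal axis) for the tested genes of 5 lists related to FGF and EGF signalling, where each point is a gene, each vertical bar a list's median, and open points had 1 group below background. Heparan sulfate genes had 16 of 18 points called higher, and Errfi1 (-5.1) and Rhbdf2 lie far to the left in their lists.

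The Cav1 siRNA was compared with the control siRNA in cultured cells, a comparison that shares the control-siRNA arrays with the one above. No member was called, as was the case for all genes tested (0% called by limma; smallest adjusted p over all genes 0.097). At an unadjusted p under 0.05, 2 of 31 members and 1189 of all genes (4.96%) were reached. For 10 members the arrays of both groups did not overlap, 3 higher and 7 lower, where 22.6% of all genes were separated, 8.61% higher and 14% lower. The median member change was -0.13, against -0.04 over all genes, and the members ranged from -0.83 to 0.33.

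Fgf18 had the smallest p of the members and ranked 27 among all genes. It read 1.26, 1.15 and 0.94 with the control siRNA and 0.38, 0.43 and 0.13 with the Cav1 siRNA. Every Cav1-siRNA array was below every control array, at 57.4% of the control level (95% confidence interval 45.5 to 72.3%, log2 change -0.8, SE 0.15). The limma p was 0.000431 before and 0.376 after adjustment over all genes, so Fgf18 did not pass. Within slide 2, which held control-siRNA arrays 2 and 3 and all Cav1-siRNA arrays, the change was -0.73 (adjusted p = 1). Its range over 22 alternatives was -0.89 to -0.69 (adjusted p 0.0114 to 1), with a call under array weights alone (-0.82). Against the quiescent level of -3.55 ± 0.08, the Cav1-siRNA mean of 0.31 ± 0.16 (SD, n = 3) lay far above it.

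Egf was next, with -1, -1.15 and -1.26 against -1.53, -1.66 and -1.75. The groups did not overlap, at 70.2% of the control level (95% confidence interval 54.7 to 90%, log2 change -0.51, SE 0.16, adjusted p = 0.749). Its second kept probe gave -0.66, and within slide 2 the change was -0.44. Egf was called with array weights alone (adjusted p = 0.0248, from 0.0248 to 1 over the alternatives).

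Nrg2 read -3.37, -3.43 and -2.88 and then -3.88, -4.3 and -3.5, a change of -0.67 (95% confidence interval -1.51 to 0.18, adjusted p = 1). Fgfr4 read -4.51, -4.18 and -4.26 and then -4.66, -4.67 and -4.38, a change of -0.26 (-0.62 to 0.11) with overlapping groups. The sign of Fgfr4 turned with normexp correction (0.04), where another of its probes may have been picked. Without that correction its reference probes gave 0.24 and -0.4. Erbb3 read -6.24, -6.2 and -5.8 and then -6.35, -6.08 and -8.32, where Cav1-siRNA array 3 alone was far lower and all 3 were below background, and its change was -0.83 (-2.07 to 0.4), or -0.13 without that array.

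Fgf7 had a change of -0.15 (95% confidence interval -0.51 to 0.2, adjusted p = 1), which is 89.9% of the control level (70.4 to 115%). The separate behaviour of Fgf7 and Fgf18 was not tested as a difference. In the 5 related lists no gene was called, and Ndst1, a heparan sulfate sulfotransferase (-0.59, adjusted p = 0.74), had the smallest p. A p that misses the threshold does not show that levels were equal.

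For the other members called in culture with a log2 change of at least 1, none was called with the Cav1 siRNA (adjusted p = 1 for each shown here), and the control-siRNA values stand above. Among the paracrine ligands, Cav1-siRNA signals of Fgf1 were -2.49, -2.12 and -2.3, a change of -0.33 (95% confidence interval -0.89 to 0.24) with all arrays below the controls. Fgf2 read -1.41, -1.38 and -1.42, a change of 0.25 (95% confidence interval -0.47 to 0.96) with all arrays above them. Fgf10 read -5.85, -5.21 and -4.44, and its change of 0.03 (95% confidence interval -0.99 to 1.05) came with 2 of 3 Cav1-siRNA arrays above background. The Fgf23 probe read 3.81, 3.22 and 3.55 (change -0.27), overlapping the controls.

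Of the EGF receptor ligands, Ereg read -0.27, -0.28 and -0.28, all above the controls, a change of 0.07 (95% confidence interval -0.69 to 0.82). Btc read -2.29, -2.56 and -2.29, with all arrays below the controls and a change of -0.24 (95% confidence interval -0.79 to 0.31). Tgfa read -2.23, -2.47 and -2.29 and overlapped them (change 0.03). Neuregulin signals overlapped those of the control siRNA in both genes that were called in culture. Nrg1 read 0.49, 0.44 and 0.38 (change 0.12) and Nrg4 read -4.84, -4.92 and -5.11 (change 0.15).

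The intervals of the receptors shown here with one include 0. Fgfr1 read 2.43, 2.53 and 2.65, a change of 0.33 (95% confidence interval -0.39 to 1.05), with all arrays above the controls. Fgfr2 read -1.93, -2.23 and -2.03 (change 0.08) and Fgfr3 -2.7, -2.38 and -2.26 (change -0.13), and both overlapped. Egfr read 3.58, 3.61 and 3.55, below every control array, and its change of -0.56 (95% confidence interval -1.51 to 0.39) did not pass. The SD of Egfr was 1.03 in quiescent cells, 0.07 with the control siRNA and 0.03 with the Cav1 siRNA (n = 3 each), and the fit uses 1 estimate of the spread for all 3 groups. Erbb2 read 1.7, 1.72 and 1.67 (change -0.11) and overlapped.

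**Figure D5:**
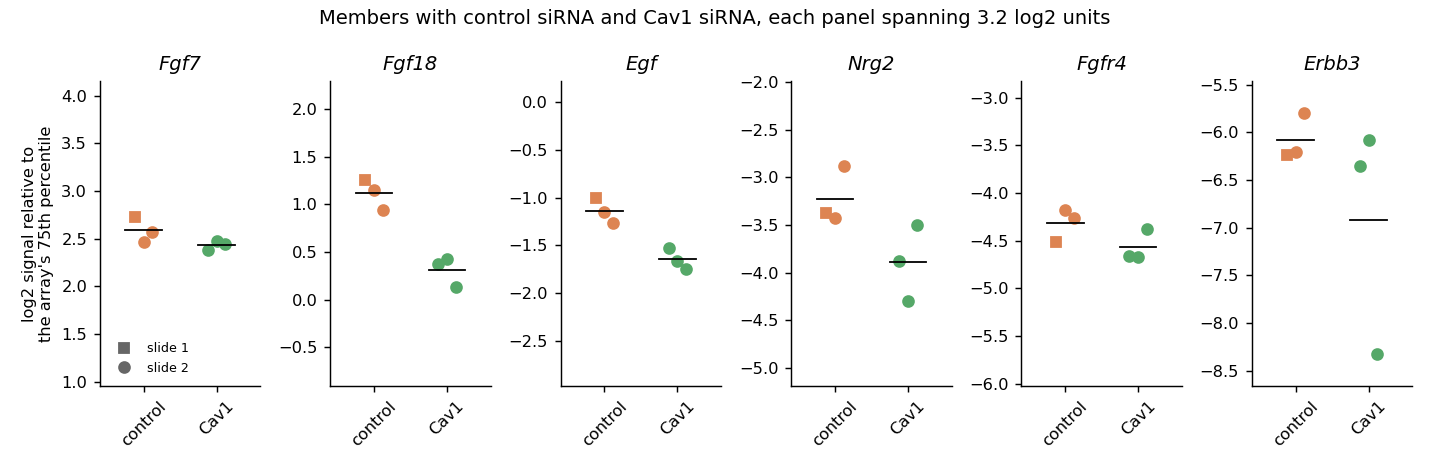
Log2 signal relative to the array's 75th percentile (vertical axes, each spanning the same range) for Fgf7 and the 5 members with the smallest p, with the control siRNA and the Cav1 siRNA, where each point is 1 array, the square is the control array on slide 1 and lines are means. Fgf18 means are 1.12 and 0.31 with no overlap, Fgf7 overlaps, and the Erbb3 mean of -6.91 includes 1 array at -8.32.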

How the data were processed

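Expression was measured on 9 single-colour Agilent arrays. The submitters' processing notes name Agilent Feature Extraction 10.7.1.1. The deposited values are linear spot intensity, background-subtracted and detrended but not scaled across arrays, per the file headers; mean spot and local background intensity and quality flags were read too. Here log2 intensity was taken, each array's 75th percentile over non-control spots subtracted, and spots of a probe averaged without outliers. Probes are named by the files and, for 32994, through RefSeq accessions; coordinates are mm9, per the file headers, and exon or untranslated positions were not analysed here. limma 3.58.1 (R 4.3.3, data.table version 1.17.8) fitted a mean for each group over all 9 arrays (lmFit, eBayes, two-sided), with Benjamini-Hochberg adjustment over 23965 genes; the fit was tested on simulated data. The number of arrays limits the precision, and no spot was saturated.

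Values in full are given for members called with a log2 change of at least 1, for Fgf7 and Fgf18, and for the 5 with the smallest p after the Cav1 siRNA; each related list names up to 3 called genes each way. Members and lists were chosen with earlier results of these data known. The CA-run count was chosen after its values were seen. Alternatives covered scaling, background, filter, probe choice, slide, replicate number, array weights and left-out arrays. All quiescent arrays shared slide 1 with control-siRNA array 1, and slide 2 held the rest. Promoters came from RefSeq (GRCm38.p6). Figures used matplotlib 3.10.9 in Python 3.11.15.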

Additional observations from a re-analysis of the deposited data

How the results depend on the processing

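Of the alternatives, median, quantile and value-table settings kept 15 or 16 members higher and 7 or 8 lower after culture. All 18 members with at least a 2-fold change kept their direction under each alternative that gave a single value per gene, except Fgf10. Fgf10 was -0.3 (adjusted p = 0.0909, from 6.81e-05 to 0.0909 over its alternatives) with normexp and the 75th percentile. Testing every kept probe gave no such value. There an Nrg4 probe was called higher (0.78), and probes of Nrg1 (-0.13 and -0.43) and Tgfa (-0.12) ran against their gene without a call. Sizes depended more on the background correction. With normexp and the 75th percentile the changes were 5.34 for Fgf7, 2.57 for Ereg, 1.51 for Fgf2 and 0.91 for Btc, all called. These lie below the minimum folds given above, which hold only for the main background subtraction. Tgfa gave 0.29 with the same normexp setting and was not called (adjusted p = 0.0995, from 0.000785 to 0.0995). Of the falls, Erbb3 went from -6.41 to -3.72 and Nrg4 from -5.28 to -3.38, Fgf1 gave -5.33, and Fgfr4 went from -0.87 to -2.71, all called. The brightest probe was picked anew under each setting, so a gene with several kept probes, such as Fgfr4, may be read by another probe there. Of the other rises, Fgf18 gave 3.2, Egf 1.22, Nrg1 1.95 and Fgfr2 0.44, all called. That setting moved the median of all genes from 0.32 to -0.12 and the share of calls in the higher direction from 61.8 to 46.2% (members 12 higher, 10 lower). Without a filter the share was 47% and 13 members were lower, 6 of which had not passed the filter; with a filter for all arrays, which left 19 members, 9 were higher and 5 lower. A slide block, the same as the within-slide value in this design, gave 12 higher and 7 lower and no call for Fgfr2, Tgfa, Fgf8, Fgf11 and Fgf6.

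After the Cav1 siRNA the count over all genes was 0, and 7 with normexp and the 75th percentile, 5 with normexp and quantile, 6 with the filter for all arrays, 19 with the 6 arrays compared, 656 with array weights, and 0 to 2 with 1 array left out (2 without quiescent array 1). Members called numbered 2 with array weights, Fgf18 and Egf, and 0 otherwise. Fgfr4, perhaps read by another probe, turned to 0.04 and 0.03 with the normexp settings. Correlations of deviations of same-numbered arrays lay between -0.11 and 0.17, which cannot settle whether replicate numbers pair the samples, and the labels do not say. With a replicate block 15837 genes were called after culture, 16 members higher and 7 lower, and 0 genes and 0 members after the siRNA. Causes of these differences were not tested.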
